A study of Mus musculus with 6 samples.

Results

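A set of 10 transcription factors known from epithelial-to-mesenchymal transition (EMT) was followed over the first day after dox was given to mouse embryonic stem cells (ESCs) that carry an inducible Snail gene. They were Snai1, Snai2, Zeb1, Zeb2, Twist1, Twist2, Foxc1, Foxc2, Prrx1 and Hmga2, and every probe set that listed one of them as its only gene symbol was taken, which gave 27 of 45037 probe sets and 10 of 18193 genes. None of the probe sets listed a member together with another gene. A2.Snail cells carry a Snail transgene under doxycycline (dox) control, they are a single inducible line, and they had been grown on irradiated fibroblast feeders and passaged once without them. In the DKK + dox group, embryoid bodies grown in serum with DKK1, a secreted inhibitor of Wnt signaling, received dox at 250 ng/mL on day 2. The DKK group was grown the same way, with DKK1 and no dox. RNA was taken 6, 12 and 24 hours later (days 2.25, 2.5 and 3), with 1 Affymetrix array per condition and time, so 6 arrays in all. No array had dox without the Snail transgene.

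Snail, encoded by Snai1, is a zinc finger repressor that binds E-box letters in the promoters of epithelial genes such as Cdh1, the gene of E-cadherin. Cells that undergo EMT lose their junctions and apical polarity and gain mesenchymal adhesion, matrix and motility genes. The other factors fall into families: Snai2 (Slug) is a paralog of Snail, Zeb1 and Zeb2 are zinc finger and homeobox repressors of the same E-box letters, and Twist1 and Twist2 are basic helix-loop-helix proteins. Foxc1 and Foxc2 are forkhead factors of early mesenchyme, Prrx1 is a paired-type homeobox factor, and Hmga2 is an architectural chromatin protein of embryonic cells that is known to act upstream of Snail and Twist in TGF-beta-driven EMT.

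The E-box letters searched were CAGGTG and its reverse complement CACCTG, on both strands, in RefSeq promoter windows of build GRCm38.p6 that run from 250 bases before to 50 after a gene's start. Windows were given for 7 of the 10 factors. Of these 7, Snai1 alone held the letters (14.3% of the 7 genes), against 22.6% of 27025 genes and 20.2% of 32851 windows in the whole table. Zeb2, Twist1, Twist2, Foxc1, Prrx1 and Hmga2 held none in these windows. Of 21 epithelial genes known as targets of Snail and Zeb repressors, 13 had a window, and all 13 held the letters; 8 of the 13 fell with dox in the limma test described further on. The 250 bases before the start are shown for Snai1, for Foxc1 and Twist1 as members that rose and held no match, and for Crb3, a polarity gene that fell, with E-box letters in capitals. The Snai1 stretch lies at chr2:167537945-167538194 on the plus strand, with a match 126 bases before the start. The Foxc1 stretch lies at chr13:31806396-31806645 and the Twist1 stretch at chr12:33957421-33957670, both on the plus strand. The Crb3 stretch lies at chr17:57061951-57062200 on the plus strand, with matches 118, 63 and 7 bases before the start.
Snai1: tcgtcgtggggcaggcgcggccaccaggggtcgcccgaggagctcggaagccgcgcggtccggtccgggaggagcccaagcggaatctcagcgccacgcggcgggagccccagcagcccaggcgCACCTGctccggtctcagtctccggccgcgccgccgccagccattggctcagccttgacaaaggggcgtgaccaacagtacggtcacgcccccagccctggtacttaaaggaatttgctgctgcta
Foxc1: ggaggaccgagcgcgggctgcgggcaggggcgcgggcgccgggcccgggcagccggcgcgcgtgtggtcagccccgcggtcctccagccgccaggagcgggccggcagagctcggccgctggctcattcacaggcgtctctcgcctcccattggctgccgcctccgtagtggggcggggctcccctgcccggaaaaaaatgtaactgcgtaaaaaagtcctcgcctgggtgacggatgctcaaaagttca
Twist1: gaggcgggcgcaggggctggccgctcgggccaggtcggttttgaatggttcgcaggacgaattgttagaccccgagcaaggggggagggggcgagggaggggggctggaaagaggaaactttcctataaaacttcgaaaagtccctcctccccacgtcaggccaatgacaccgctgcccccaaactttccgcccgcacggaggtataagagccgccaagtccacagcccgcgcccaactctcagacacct
Crb3: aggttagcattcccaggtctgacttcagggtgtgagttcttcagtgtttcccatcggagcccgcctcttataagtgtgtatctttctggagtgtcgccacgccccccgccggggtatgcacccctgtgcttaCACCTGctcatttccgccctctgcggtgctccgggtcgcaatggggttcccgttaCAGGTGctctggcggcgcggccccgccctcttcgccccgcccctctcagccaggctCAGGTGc
Over all genes tested, 13.2% of the 986 genes with a window that rose held the letters, against 38.2% of the 752 that fell and 22.0% of the 10069 that did not pass; these are descriptions, and a match is neither a bound site nor a cause.

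In many epithelial cells the miR-200 family represses Zeb1 and Zeb2, and let-7 represses Hmga2. The mature sequences from RefSeq (GRCm38.p6) are shown because these regulators define the members' known post-transcriptional control, with the seed, bases 2 to 8, in capitals. miR-200b, miR-200c and miR-429 share one seed, miR-200a and miR-141 share another, and let-7c stands for the 8 let-7 miRNAs of the table that share one of their own. The miRNAs themselves were not analysed here.
miR-200b-3p: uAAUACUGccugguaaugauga
miR-200c-3p: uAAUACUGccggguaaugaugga
miR-429-3p: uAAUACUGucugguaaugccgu
miR-200a-3p: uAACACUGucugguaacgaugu
miR-141-3p: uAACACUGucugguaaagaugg
let-7c-5p: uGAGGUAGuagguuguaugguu

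The deposited values are linear intensities, and the array medians lay between 53.5 and 63.7. On each array 37.5 to 41.3% of all probe sets lay at or under 37.2, the 40th percentile of all values, which served as the low-signal limit. Where a gene had several probe sets, the one with the highest mean over the 6 arrays stood for it. Differences are DKK + dox minus DKK after log2(intensity + 20.6), the added constant being the pooled 25th percentile. For low genes the added constant makes a change look smaller than it is. A difference at a single time compares 2 arrays and has no test. Genes over the limit on at least 1 array, 14755 in number, were tested with limma under a model in which the dox difference scales with the hours since dox. A fitted difference is what that model gives at 24 hours, with its standard error (SE). With 1 array per condition and time, the fit has 2 residual degrees of freedom, and a p-value reflects how closely 6 arrays follow the model, not how cultures vary.

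The 10 factors divided into 5 that rose, 2 that were tested and did not pass, and 3 that were not tested because no array exceeded the limit. Zeb1, Zeb2, Twist1, Foxc1 and Hmga2 rose in the limma trend, and no member fell. Over all genes tested, 8.32% were called higher and 6.38% lower by the same rule. Foxc1 entered the test only through its DKK + dox arrays at 12 and 24 hours, so a gene with its pattern had to differ; without it 4 members rose. The factors were chosen with earlier results of these data known, so the count of 5 that rose is not independent evidence of their direction. At 6 hours 0 of the 10 members were at least 2-fold higher in DKK + dox, beside 0.271% of all genes tested. At 12 hours 4 members were (Zeb1, Zeb2, Twist1 and Foxc1), beside 1.27% of all genes. At 24 hours Hmga2 joined them, beside 3.12% of all genes. Its later first hour depended on the 2-fold cut, since 66.2% of its 24 hour difference was present at 12 hours. At 1.5-fold 5 members were higher at 12 hours, Hmga2 among them, and the share of all genes at that cut and time was not counted. With all probe sets of a gene averaged, 2 members in place of 4 were 2-fold higher at 12 hours, and with an offset of 64, 3 were. When the difference was modeled as constant over the 3 times, 0 members and 0 genes in all passed in limma (lowest adjusted p = 0.0516, with 2927 genes at an unadjusted p under 0.05).

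**Figure D1:**
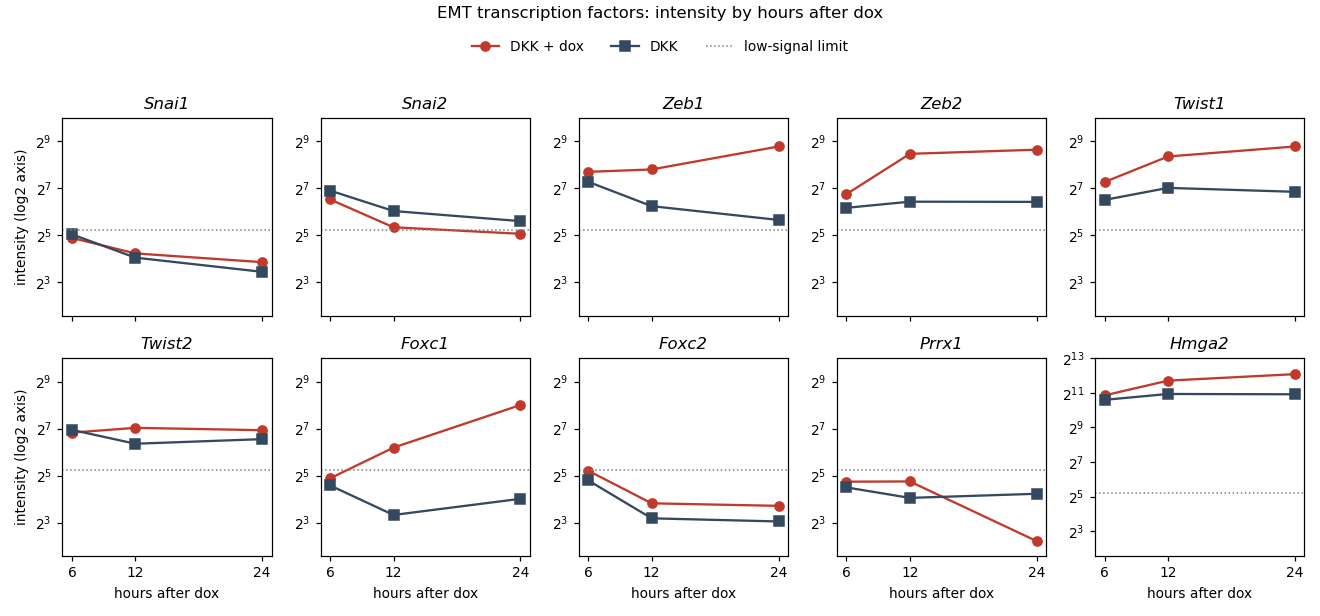
Intensity (log2 axis) of the 10 factors at 6, 12 and 24 hours after dox, each on its brightest probe set, with DKK + dox in red circles, DKK in dark squares and the low-signal limit of 37.2 as a dotted line; each point is 1 array, and the Hmga2 panel has a taller axis than the others. The gap between the 2 curves is widest at 24 hours for Zeb1, Zeb2, Twist1, Foxc1 and Hmga2, and the curves stay close or low for the rest. Twist1 is already at least 1.5-fold higher in DKK + dox at 6 hours.

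Snai1, the gene that dox was meant to induce, was not above background on its only probe set (1448742_at) in either condition. It read 29.6, 18.8 and 14.5 in DKK + dox at 6, 12 and 24 hours, against 32.9, 16.6 and 10.9 in DKK. All 6 values lay under the low-signal limit, and both conditions declined together. The transgene had been amplified with a forward primer that spans the start codon, shown with ATG in capitals, and with the reverse primer under it.
C_snail F: taggtcgctctggccaacATGc
C_snail R: aagatgccagcgaggatggg
Whether the probe set lies inside the cloned fragment was not analysed here. Its values therefore cannot be read as a check of the dox label or as a measure of the transgene. Neither primer lies within the Snai1 promoter window. The E-cadherin gene Cdh1, the best known target of Snail, read 3465, 2868 and 3063 in DKK + dox, against 4481, 5957 and 6222 in DKK. Cdh1 fell, with a fitted log2 difference of -1.25 ± 0.17 (SE, 6 arrays, limma adjusted p = 0.00456).

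Snai2, the paralog of Snail that neural crest and mesenchymal cells use, was lower in DKK + dox at every time and did not pass the test. Its higher probe set (1447643_x_at) read 92.2, 40.55 and 33.45 in DKK + dox, against 119.7, 65.5 and 48.6 in DKK. It declined with time in both conditions, by 1.06 in DKK + dox and by 1.02 in DKK on the log2 scale between 6 and 24 hours. The fitted difference was -0.52 ± 0.24 (SE, 6 arrays, limma adjusted p = 0.207). The other probe set (1418673_at) gave 54.2, 18.45 and 21.45 in DKK + dox, against 58.1, 44.5 and 33.9 in DKK. The order was the same on both probe sets at each time.

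Zeb1 climbed in DKK + dox while it declined in DKK. Its main probe set (1418926_at) read 208, 223 and 439.7 in DKK + dox at 6, 12 and 24 hours, against 155, 75.6 and 50.3 in DKK. The log2 difference was 0.38, 1.34 and 2.70 at the 3 times, an 8.73-fold ratio of the 24 hour values. In DKK + dox Zeb1 gained 1.01 on the log2 scale between 6 and 24 hours, nearly all of it after 12 hours, and in DKK it lost 1.31. The fitted difference was 2.64 ± 0.19 (SE, 6 arrays, limma adjusted p = 0.000858), which ranked 34th of 14755 genes. Of the 3 other Zeb1 probe sets, 1443005_at passed the filter and read 65.3, 67.8 and 63.5 in DKK + dox, against 95.0, 42.4 and 53.2 in DKK. On that probe set the fitted difference was 0.25 ± 0.28 (SE, 6 arrays, limma adjusted p = 0.646 over all probe sets). The remaining pair stayed under the limit on all 6 arrays, so the Zeb1 rise rests on a single probe set. With all Zeb1 probe sets averaged, the fitted difference was 0.88 (limma adjusted p = 0.0461, within a range of 4.27e-05 to 0.114 over 15 alternatives).

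Zeb2 (also Sip1), the closest relative of Zeb1, had a flat level in DKK and a step in DKK + dox between 6 and 12 hours. Its main probe set (1434298_at) read 108, 354 and 400.2 in DKK + dox, against 72.0, 86.3 and 85.8 in DKK. The log2 difference was 0.47, 1.81 and 1.98, so 91.2% of the 24 hour difference was present at 12 hours. Of the 1.71 that Zeb2 gained in DKK + dox between 6 and 24 hours, 1.55 came before 12 hours. The fitted difference was 2.29 ± 0.29 (SE, 6 arrays, limma adjusted p = 0.00392). Zeb2 did not pass when time was fitted as a line (limma adjusted p = 0.0635) or when the intensity trend was left out of limma (adjusted p = 0.0558), within a range of 0.000473 to 0.0779 over 15 alternatives.

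Other Zeb2 probe sets gave another course. 1456389_at read 42.35, 138 and 310.4 in DKK + dox, against 56.65, 44.5 and 46.7 in DKK, with 55.9% of the 24 hour difference present at 12 hours. 1422748_at read 36.8, 39.8 and 90.05 in DKK + dox, against 23.6, 20.8 and 12.7 in DKK, with 31.5%. Both rose (limma adjusted p = 0.00603 and 0.00826 over all probe sets), while 1458941_at read 157, 129 and 132 in DKK + dox, against 164, 115 and 114 in DKK, and did not pass (adjusted p = 0.586). The first 2-fold difference came at 12 hours on 1434298_at and 1456389_at and at 24 hours on 1422748_at. No DKK array of 1422748_at exceeded the low-signal limit, so it entered the test only through its DKK + dox arrays at 12 and 24 hours and had to differ.

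Twist1, a basic helix-loop-helix factor of mesoderm and neural crest, showed the largest 6 hour difference of any member on the brightest probe sets. The Prrx1 probe set 1458004_at, under the low-signal limit on every array, had 0.68 at that time. Its single probe set (1418733_at) read 154, 327 and 439.8 in DKK + dox, against 90.9, 129.7 and 115.5 in DKK. The lowest DKK + dox value lay above the highest DKK value, and the share of all genes so separated was not counted. The log2 difference was 0.65, 1.21 and 1.76, and on the brightest probe sets Twist1 alone among the 10 was at least 1.5-fold higher at 6 hours, as were 1.02% of all genes tested. The fitted difference was 1.92 ± 0.19 (SE, 6 arrays, limma adjusted p = 0.00210), and in DKK alone Twist1 gained only 0.29 between 6 and 24 hours.

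Twist2 (Dermo1), which overlaps Twist1 in mesenchyme, did not pass. It read 113.5, 131 and 122 in DKK + dox, against 123, 81.8 and 93.65 in DKK. The order of the conditions changed between 6 and 12 hours, and the fitted difference was 0.44 ± 0.23 (SE, 6 arrays, limma adjusted p = 0.257). Neither Twist gene was set against the other by a test.

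Foxc1 lay under the low-signal limit on every DKK array and rose past it in DKK + dox. Its main probe set (1419486_at) read 29.5, 72.9 and 256 in DKK + dox, against 23.9, 9.99 and 16.1 in DKK. The 6 hour DKK + dox array was also under the limit, so the difference is set against background and its size depends on the offset. The log2 difference was 0.17, 1.61 and 2.91, and the fitted difference was 2.87 ± 0.30 (SE, 6 arrays, limma adjusted p = 0.00231). With an offset of 64 it was 1.88, below that of Zeb1 at 2.09. The other probe set (1419485_at) read 6.53, 25.4 and 57.1 in DKK + dox, against 3.15, 6.38 and 1 in DKK, and rose as well (fitted 1.74 ± 0.31, SE, 6 arrays, limma adjusted p = 0.0119 over all probe sets). Here too the signal passed the limit in DKK + dox at 24 hours and on no other array. Without the 24 hour pair the Foxc1 call was lost (limma adjusted p = 0.0841, within a range of 0.000202 to 0.140 over 14 alternatives).

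Foxc2, its paralog in paraxial and vascular mesenchyme, stayed under the limit on its only probe set (1416693_at). It read 36.9, 14.1 and 13.1 in DKK + dox, against 27.7, 9.05 and 8.25 in DKK. Both conditions declined, and no test was made. Prrx1 had 6 probe sets and none of them exceeded the limit, with a highest value of 26.9 in DKK + dox and of 22.5 in DKK. At this signal a fall or a small rise of Foxc2 or Prrx1 was not detectable. A rise past the limit, such as that of Foxc1, was seen for neither.

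Hmga2 was bright on all 6 arrays, and its difference grew at each time. Its main probe set (1450780_s_at) read 1840.3, 3322 and 4306 in DKK + dox, against 1539.6, 1947 and 1922.5 in DKK. The log2 difference was 0.25, 0.76 and 1.15, and the fitted difference was 1.22 ± 0.09 (SE, 6 arrays, limma adjusted p = 0.000880). Hmga2 had 3 probe sets over the limit, and all of them rose. 1422851_at read 1679, 3069 and 3993 in DKK + dox, against 1313, 1445 and 1282 in DKK, with a fitted difference of 1.71 ± 0.11 (SE, 6 arrays, limma). 1450781_at read 296, 582 and 1463 in DKK + dox, against 217, 337 and 403 in DKK, with a fitted difference of 1.74 ± 0.13 (SE, 6 arrays, limma). The 3 come from the same transcript record, and another (1446196_at) stayed under the limit. On 1422851_at Hmga2 was 2-fold higher at 12 hours, on the others at 24 hours.

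**Figure D2:**
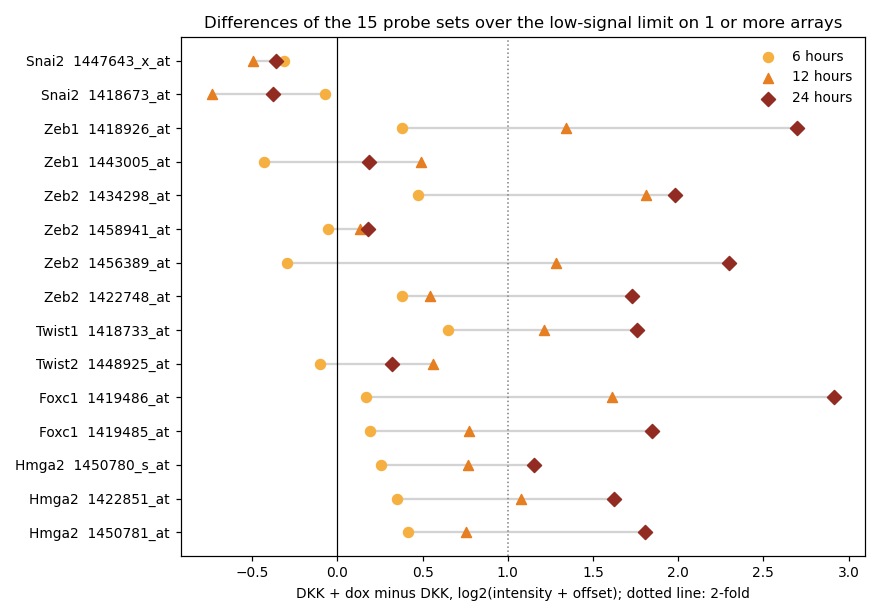
DKK + dox minus DKK difference on the log2(intensity + 20.6) scale at 6 (circles), 12 (triangles) and 24 hours (diamonds) for the 15 member probe sets that exceeded the low-signal limit on at least 1 array; each symbol compares 2 arrays and the dotted line marks 2-fold. Probe sets of a single gene differ at 24 hours, from 0.19 to 2.70 for Zeb1 and from 0.18 to 2.30 for Zeb2, and both Snai2 probe sets lie below 0 at every time.

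By probe set, 15 of the 27 exceeded the limit on at least 1 array, 10 on all 6, and 12 on none. Of the 15, 10 rose in a limma fit over all 26362 probe sets, in which 6.81% were called higher. Of these 10, both Foxc1 probe sets and 1422748_at of Zeb2 exceeded the limit on DKK + dox arrays only, so they had to differ. The 12 that never exceeded the limit read between 1 and 36.9, with differences between -0.64 and 0.85. Of the member probe sets, 6 were first at least 2-fold higher at 12 hours and 4 at 24 hours. On their brightest probe sets Zeb1, Zeb2, Twist1 and Foxc1 shared 12 hours as first hour. Of their other probe sets over the limit, 1456389_at followed at 12 hours, and 1422748_at and 1419485_at at 24 hours. 1443005_at of Zeb1 and 1458941_at of Zeb2 were 2-fold higher at no time. The arrays thus gave no order among these genes, since a difference of 2 arrays has no error of its own.

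**Figure D3:**
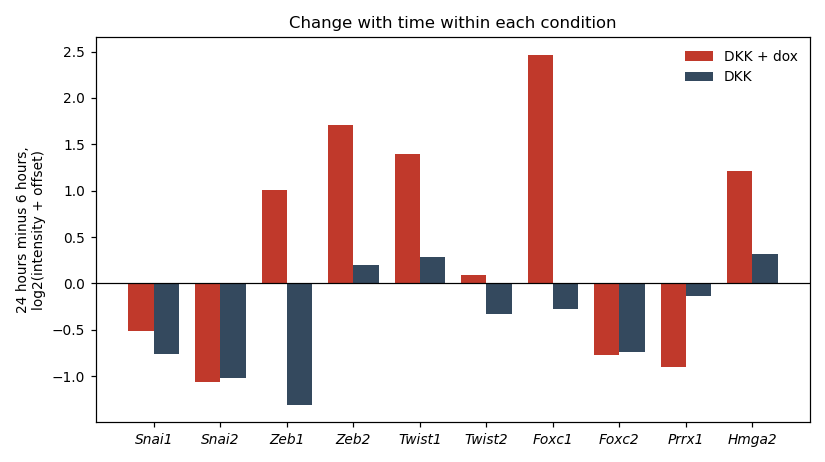
Change between 6 and 24 hours on the log2(intensity + 20.6) scale within DKK + dox (red bars) and within DKK (dark bars) for the 10 factors. Each factor is shown on its brightest probe set, and each bar compares 2 arrays. Foxc1 has the tallest DKK + dox bar at 2.47, and in DKK the lowest bars are those of Zeb1, at -1.31, and Snai2, at -1.02. Snai1, Foxc2 and Prrx1 lay under the low-signal limit on every array, and Foxc1 on every DKK array.

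On their brightest probe sets, these factors moved upward by little or declined without dox. Between 6 and 24 hours in DKK, Zeb2, Twist1 and Hmga2 gained 0.20, 0.29 and 0.32 on the log2 scale, and the other 7 lost between 0.14 and 1.31. Other probe sets differed in DKK. Zeb2 changed by -0.46 on 1458941_at, -0.20 on 1456389_at and -0.41 on 1422748_at. Hmga2 changed by -0.03 on 1422851_at and by 0.84 on 1450781_at. On the brightest probe sets in DKK + dox, the same interval brought gains of 1.71, 1.40 and 1.22 for Zeb2, Twist1 and Hmga2. Zeb1 gained 1.01 and Foxc1 2.47. Snai1, Snai2, Foxc2 and Prrx1 lost 0.52 to 1.06 in DKK + dox, and Twist2 moved by 0.09. Snai1, Foxc2 and Prrx1 lay under the low-signal limit on every array, and Foxc1 on every DKK array, so those changes lie within background. None of these changes within a condition has a test.

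**Figure D4:**
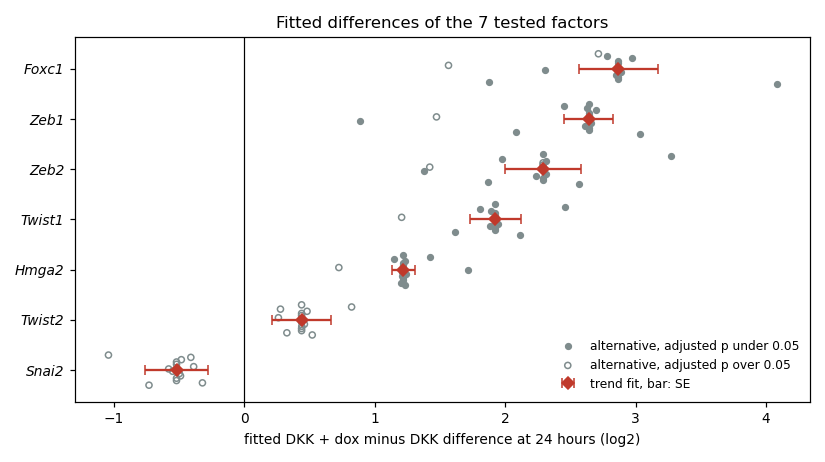
Fitted DKK + dox minus DKK difference at 24 hours (log2) of the 7 tested factors, with diamonds and SE bars for the trend fit and points for the alternative processings, filled where the limma adjusted p was under 0.05 and open where it was over. Every alternative kept the sign, and the open points on the 5 factors that rose mark 8 lost calls.

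The genes whose 3 differences lay nearest to those of a member, by root mean square distance in log2 units over the 3 times, were found among all tested genes that are no members. For Zeb1 they included Tgfb1i1, a focal adhesion adaptor (0.116), and Ecscr (0.165). For Zeb2 they were the homeobox gene Prrx2 (0.147), Lix1l (0.173) and Kirrel (0.213). For Twist1 they were Efnb1, an ephrin ligand (0.0265), Itih5 (0.122) and the homeobox gene Meis2 (0.141). For Foxc1 they included the semaphorin gene Sema6d (0.0984) and the annexin gene Anxa2 (0.134). For Hmga2 they were Fkbp14 (0.0344), Litaf (0.0434) and Plpp3 (0.0485). All of these rose in the same fit, which is no separate result, since they were picked for differences like those of members that rose. Likeness over 3 differences says nothing of shared control.

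Other transcription factors linked to EMT were read from the same fit, in which 8.32% of all genes tested were called higher and 6.38% lower. Of 17 measured, 16 were tested, 7 rose, none fell and 9 did not pass, with a median difference of 0.31 at 24 hours against 0.02 over all genes tested. Sox9, a factor of chondrogenic and crest cells, read 116, 382 and 745 in DKK + dox, against 91.3, 44.8 and 49.1 in DKK, with a fitted difference of 3.69 ± 0.37 (SE, 6 arrays, limma adjusted p = 0.00207). The organizer gene Gsc read 43.1, 140.9 and 132 in DKK + dox, against 8.48, 21.6 and 21.9 in DKK. Its DKK values all lay under the low-signal limit, so Gsc entered the test only through its DKK + dox arrays and had to differ. Set against that background, Gsc was 2-fold higher at 6 hours, when none of the 10 factors was. Prrx2, the paralog of the undetected Prrx1, read 111, 226 and 249.8 in DKK + dox, against 78.0, 51.1 and 60.5 in DKK. Tcf4 and Tcf12, E-proteins that pair with Twist, also rose, with fitted differences of 0.89 and 0.67.

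The proteins that pair with Twist or withhold its partners include E-proteins, Hand factors and Id proteins. Of 9 tested, 5 rose, beside 8.32% of all genes tested, and none fell, with a median difference of 0.61 at 24 hours. Besides Tcf4 and Tcf12 these were Id1, Id3 and Id4, dominant negative helix-loop-helix proteins that bind E-proteins. Id4 read 297, 420.4 and 442 in DKK + dox, against 136, 191 and 123 in DKK, and was 2-fold higher at 6 hours. Id3 read 1038, 1935 and 2168 in DKK + dox, against 859, 1140.3 and 1087 in DKK.

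Among 16 tested co-repressors that Snail and Zeb proteins recruit, 2 rose, 2 fell and 12 did not pass, with a median difference of 0.14 at 24 hours. Beside 8.32% of all genes called higher and 6.38% called lower, so few calls give no result about the group. Kdm1a, a histone demethylase, and the LIM protein gene Wtip rose by fitted differences of 0.27 and 0.52. Ajuba, another LIM co-repressor, fell by 0.41 in the fit, and Ctbp2, a co-repressor bound by Zeb proteins, fell by 0.29. Among 13 tested genes of Snail protein turnover 4 rose and 1 fell, with a median of 0.29. Prkd1, a kinase that phosphorylates Snail, read 112, 331 and 457 in DKK + dox, against 89.2, 183 and 159 in DKK (limma adjusted p = 0.00264). The kinase gene Lats2 rose by 1.18 in the fit, the ubiquitin ligase gene Fbxl14 fell by 0.74, and Ctdsp1 and Fbxw11 rose by 0.59 and 0.26.

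The known targets of these repressors lay on the other side. Of 20 tested epithelial genes that Snail and Zeb factors repress, 13 fell, none rose and 7 did not pass, beside 6.38% of all genes called lower. Their median differences were -0.55, -1.05 and -1.09 at 6, 12 and 24 hours. The tight junction gene Cldn7 read 89.1, 183 and 224 in DKK + dox, against 258, 1099 and 1655 in DKK. Cldn6 read 314, 224 and 360.3 in DKK + dox, against 655, 1393 and 2049 in DKK. Cldn6, Cldn7 and Ocln were at least 2-fold lower at 6 hours, as were 0.468% of all genes tested, a time at which none of the 10 factors was 2-fold higher. Ocln, Marveld2 and Mal2 completed the 5 largest decreases, with fitted differences of -2.81, -2.61 and -2.60. Mal2 and the keratin gene Krt19, both among the 13 that fell, exceeded the low-signal limit on DKK arrays only, so they had to differ. Mal2 read 30.1, 24.4 and 28.0 in DKK + dox, against 61.7, 181 and 197 in DKK, so the size of its fall depends on the offset.

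Of 11 tested factors of the epithelial state, 3 fell, none rose and 8 did not pass, beside 6.38% of all genes called lower. The median was -0.24 at 24 hours. Grhl2, a grainyhead factor known to repress Zeb1 in epithelia, read 331, 313 and 173 in DKK + dox, against 491, 582 and 540.1 in DKK, with a fitted difference of -1.60 ± 0.14 (SE, 6 arrays, limma adjusted p = 0.00148). Grhl1 and the forkhead gene Foxa1 fell too, with fitted differences of -1.91 and -1.16. Ovol2, another repressor of Zeb1, read 92.9, 70.9 and 96.7 in DKK + dox, against 122, 93.5 and 117.5 in DKK, and did not pass (adjusted p = 0.318).

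Of 16 tested mesenchymal effectors 9 rose, none fell and 7 did not pass, beside 8.32% of all genes called higher. Their median differences were -0.08, 0.50 and 1.21 at the 3 times. Tgfbi, a matrix protein gene, read 369, 628 and 1293 in DKK + dox, against 245, 68.7 and 51.3 in DKK. The type II cadherin gene Cdh11 read 157, 229.9 and 555 in DKK + dox, against 137, 42.3 and 42.5 in DKK. Collagen III (Col3a1) and the matrix metalloproteinase genes Mmp2 and Mmp14 were the next by size, with fitted differences of 2.42, 1.75 and 1.48. Cdh2, the gene of N-cadherin, read 314, 710.3 and 1639.8 in DKK + dox, against 359, 754 and 669 in DKK, and did not pass (adjusted p = 0.0633).

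Besides Hmga2, let-7 is known to repress Igf2bp1, Igf2bp3, Lin28a, Lin28b, Trim71 and Arid3b. Of these 6 tested genes only Igf2bp3 rose, with a fitted difference of 0.49 (limma adjusted p = 0.0229), beside 8.32% of all genes called higher. None fell, and the median at 24 hours was 0.02. Lin28a, which blocks let-7 maturation, read 6423, 6948 and 3726 in DKK + dox, against 6265, 6740 and 5113 in DKK, and did not pass (adjusted p = 0.0718).

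**Figure D5:**
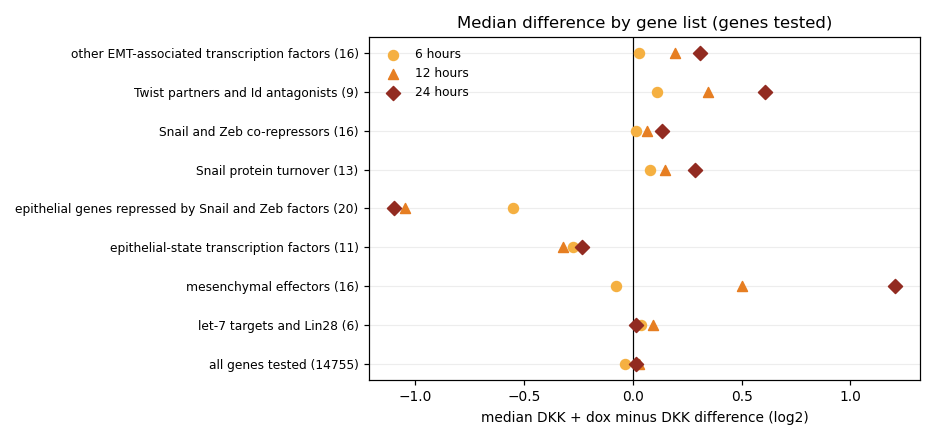
Median DKK + dox minus DKK difference (log2) over the tested genes of each list, their number in brackets, at 6 (circles), 12 (triangles) and 24 hours (diamonds), with all genes tested in the bottom line. Epithelial genes repressed by Snail and Zeb factors reach -1.09 and mesenchymal effectors 1.21 at 24 hours, beside 0.02 over all genes tested.

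Markers of other cell types moved beside the factors, and in bulk RNA fewer cells of a type and less RNA per cell cannot be told apart. By the same rule 8.32% of all genes tested were called higher and 6.38% lower. Of 15 tested parietal endoderm markers 8 rose and none fell, with a summed intensity of 5507 to 8136 in DKK + dox against 4048 to 6560.3 in DKK. Sox7 and Sox17 were among those that rose, while Gata4 and Gata6, which define the lineage, did not pass, at 48.9 to 59.5 and 66.8 to 94.9 in DKK + dox against 35.6 to 64.2 and 63.4 to 111 in DKK. Of 9 measured nascent mesoderm markers 8 were tested and 2 rose, Kdr and Pdgfra, with a sum of 620.3 to 1773 in DKK + dox against 498 to 624 in DKK. Eomes read 106, 122 and 588 in DKK + dox, against 121, 133 and 188 in DKK, and did not pass (limma adjusted p = 0.0655). Mesp1, Mesp2, Tbx6, Mixl1 and Hand1 did not pass either, and Msgn1 stayed under the limit. Of 8 tested feeder fibroblast markers 1 rose, Pdgfrb, and Postn, Lum and Fap were under the limit on all arrays, with a sum of 1265 to 1769 in DKK + dox against 1089.6 to 2257 in DKK.

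Of 9 tested neural crest markers Ngfr rose and Foxd3 fell, beside 8.32% of all genes called higher and 6.38% called lower. Sox10 did not pass, and the sum was 892 to 909 in DKK + dox against 846 to 1086 in DKK. Of 7 tested visceral endoderm markers none passed in either direction and Afp stayed under the limit, with a sum of 1325 to 4032 in DKK + dox against 1307 to 4309 in DKK. Among 10 tested pluripotent and epiblast markers none rose and 4 fell (Fgf5, Sox2, Utf1 and Dnmt3b), while Pou5f1, at 5672 to 6675 in DKK + dox against 6046 to 6764 in DKK, did not pass. The summed intensity of that list was 27834 to 31205 in DKK + dox against 33054 to 34248 in DKK. The lists share genes, so they are not separate readouts. Sparc stands in the parietal endoderm list and Col1a1, Col1a2 and S100a4 in the feeder fibroblast list, and all are mesenchymal effectors as well. Klf4 is both an epithelial-state factor and a pluripotent marker, and Hand1 both a Twist partner and a nascent mesoderm marker. Tcf3, Tcf4 and Tcf12 are both EMT-linked factors and Twist partners. The part of these cell types in the levels of the factors was not tested.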

How the data were processed

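The data are 6 Affymetrix arrays of A2.Snail ESCs, 1 for each condition and time. The authors used dChip for normalization and modeling, and deposited linear intensities whose lowest value is 1. Which dChip version and model form were used is not given in the sources used here. Names came from the platform annotation, and 34741 of the 34945 probe sets with 1 symbol matched RefSeq (GRCm38.p6) by Entrez ID. The brightest probe set stood for each gene, and 3438 of 18193 genes that never exceeded 37.2 were left out.

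limma 3.58.1 in R 4.3.3 (lmFit, then eBayes with trend, 5.5 prior df) fitted 3 time levels and the dox difference in proportion to hours on log2(intensity + 20.6), with Benjamini-Hochberg adjustment over all 14755 genes and a threshold of 0.05. A second fit took 26362 probe sets. The number of arrays and the share of probe sets near background limit the precision. Alternatives varied the model, the times used, the fold threshold, the filter, the offset, the scaling and the choice of probe set.

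The genes named are the 10 factors with every probe set, of each list up to 5 that passed in each direction, defining markers by value, the 3 genes nearest to each member that rose, and Cdh1. One of the nearest genes is not reported here. Crb3, Cdh2, Ovol2 and Lin28a were picked out for their known role after their values were seen. The factors, lists and rules were chosen with earlier results of these data known. Plots used matplotlib 3.10.9 (Python 3.11.15).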

Additional observations from a re-analysis of the deposited data

Results flagged for a closer look

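The probe sets below had a DKK + dox minus DKK difference of opposite sign at 6 and at 24 hours. Each difference compares 2 arrays, so the change of sign was not tested. Twist2 had -0.10 at 6 hours and 0.32 at 24 hours on the log2 scale. The Zeb2 probe set 1456389_at had -0.30 at 6 hours and 2.30 at 24 hours, and 1458941_at had -0.058 at 6 hours and 0.18 at 24 hours. The Zeb1 probe set 1443005_at had -0.43 at 6 hours and 0.19 at 24 hours. Snai1, at -0.092 and 0.16, and Prrx1 (1425528_at), at 0.13 and -0.64, lay under the low-signal limit on all 6 arrays.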

How the results depend on the processing

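The fit already sets DKK + dox against DKK within each time. No paired analysis by replicate was possible because each condition and time has 1 array and the labels give no replicate numbers. Every alternative kept the sign of all 7 fitted differences of the tested factors, 95 of these values stayed on the same side of the threshold, and 8 were no longer past it. With the difference held constant over the 3 times, 0 of the 10 factors and 0 genes in all passed, where the lowest limma adjusted p was 0.0516 and 2927 genes had an unadjusted p under 0.05. The 5 factors then had adjusted p of 0.0666 to 0.140. With time as a line 4 factors passed (Zeb2 did not) and 201 genes in all, against 2168, and without the intensity trend 4 passed (again not Zeb2) and 285 genes. Without the 6 hour pair 5 factors passed and 1326 genes, and without the 24 hour pair 4 passed (not Foxc1) and 728 genes, so that leaving out a time gave 728 to 1706 genes. The cause of these losses was not tested. In a filter chosen after seeing the data, only genes over the low-signal limit on every array were kept; Foxc1 was then not tested and 4 factors passed.

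With the mean of all probe sets of a gene, 2 factors in place of 4 were at least 2-fold higher at 12 hours, and Zeb1 had a fitted difference of 0.88 (limma adjusted p = 0.0461, the range over its alternatives being 4.27e-05 to 0.114). With an offset of 64, 3 factors in place of 4 were at least 2-fold higher at 12 hours. With 1.5-fold in place of 2-fold, 1 factor was higher at 6 hours and 5 were at 12 hours, Hmga2 among them. The number of arrays and signals near background limit what could be seen for Snai1, Foxc2 and Prrx1.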
